A study of Homo sapiens with 12 samples.

Results

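The 17-beta hydroxysteroid dehydrogenase genes (HSD17B genes) and DHRS9 were followed as a group of 10 genes in VCaP prostate cancer cells, an established line that responds to androgen. The members were HSD17B1, HSD17B2, HSD17B4, HSD17B6, HSD17B8, HSD17B10, HSD17B11, HSD17B12, HSD17B14 and DHRS9, found by symbol among the 58381 genes of the count files. The 12 poly(A) libraries fell into 4 groups of 3: VCaP-CT given 10 nM testosterone (T) for 48 h, called rechallenged, VCaP-CT kept at 0.1 nM T, VCaP-T lowered to 0.1 nM T for 48 h, called depleted, and VCaP-T kept at 10 nM T. VCaP-T (passage 84) is adapted to growth in 10 nM T, and VCaP-CT (passage 73) was selected from such cells over 10 months at 0.1 nM T as a model of castration resistance. All 4 groups thus share this adapted parent, and each line is a single selected culture. The sources do not state that the replicates were separate cultures, so the p-values cover only how these samples vary, and that variation may be technical.

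The name of the family comes from the conversion between 17-keto and 17-hydroxy steroids, by which weak and strong androgens and estrogens are turned into each other. In prostate cells, such steps set how much active androgen the cell holds. Many members belong to the short-chain dehydrogenases and act mainly elsewhere: on fatty acids in peroxisomes, mitochondria and the endoplasmic reticulum, on retinoids, or on tRNA in mitochondria. A change of mRNA in one of them is therefore not by itself a change in steroid conversion, and no steroid or enzyme activity was measured here.

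Libraries held 30.2 to 40.8 M counted fragments. Among depleted VCaP-T cells, replicate 2 was unlike the other 2, with correlations of 0.9735 and 0.977 across genes, where the lowest value within any other group was 0.9966. It had the highest value of its group for 6 of the 8 members tested, namely HSD17B4, HSD17B6, HSD17B10, HSD17B11, HSD17B12 and HSD17B14, and results that it turns or whose call it changes are given with and without it. The androgen-induced genes KLK3, TMPRSS2 and FKBP5 moved with testosterone: they fell on depletion by 0.95, 1.25 and 1.68 on the log2 scale, and rose on rechallenge by 3.13, 1.87 and 2.47 (edgeR adjusted p at most 9.31e-05 in each case). Luminal prostate markers were present in every library. Their levels in FPKM, a unit that corrects for exon length and library size, differed widely. FOLH1 had 0.317 to 12.9 FPKM and KLK3 10.1 to 489, while KLK2 had at least 759 FPKM. Of 3 basal markers KRT5 and TP63 stayed at or under 0.0358 FPKM, and KRT14 had 0.601 to 2.48 FPKM.

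Levels of the members differed widely. Compared per length in FPKM, HSD17B10 was highest in VCaP-T at 10 nM T with 29.7 ± 0.752 FPKM, ahead of HSD17B11 with 20.5 ± 0.945 and HSD17B4 with 19.3 ± 0.421 (SD, n = 3). The library ranges of HSD17B11 and HSD17B4 overlapped there, and all other neighbours in that order down to HSD17B1 did not. HSD17B12 followed at 7.13 ± 0.266 FPKM, HSD17B6 at 3.62 ± 0.131, HSD17B14 at 1.80 ± 0.0318, DHRS9 at 1.36 ± 0.111 and HSD17B1 at 0.148 ± 0.0265. In VCaP-CT at 0.1 nM T the order ran HSD17B10, HSD17B4, HSD17B11, HSD17B6, HSD17B12, HSD17B14, HSD17B1 and DHRS9, with no overlap between neighbours. DHRS9 thus stood last of these 8 genes there, at 0.0316 ± 0.0202 FPKM, and HSD17B6 stood above HSD17B12, at 11.6 ± 0.510 against 10.3 ± 0.529 FPKM. FPKM used the length of all annotated exons of a gene together, 10664 bases for HSD17B4 and 1115 for HSD17B10. By normalized counts, scaled for library size, HSD17B4 was higher in VCaP-T at 10 nM T, at 7265 against 1168. The order in FPKM thus depends on these lengths, and which transcripts the cells used was not determined. Fragments in overlaps with other genes were not counted. Such overlaps take 21.6% of the exon length of HSD17B12 and 5.81% of that of HSD17B6. The order of HSD17B6 and HSD17B12 may depend on this, which was not tested. In depleted VCaP-T the ranges of HSD17B10 and HSD17B11, and those of HSD17B12 and HSD17B6, overlapped.

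**Figure D1:**
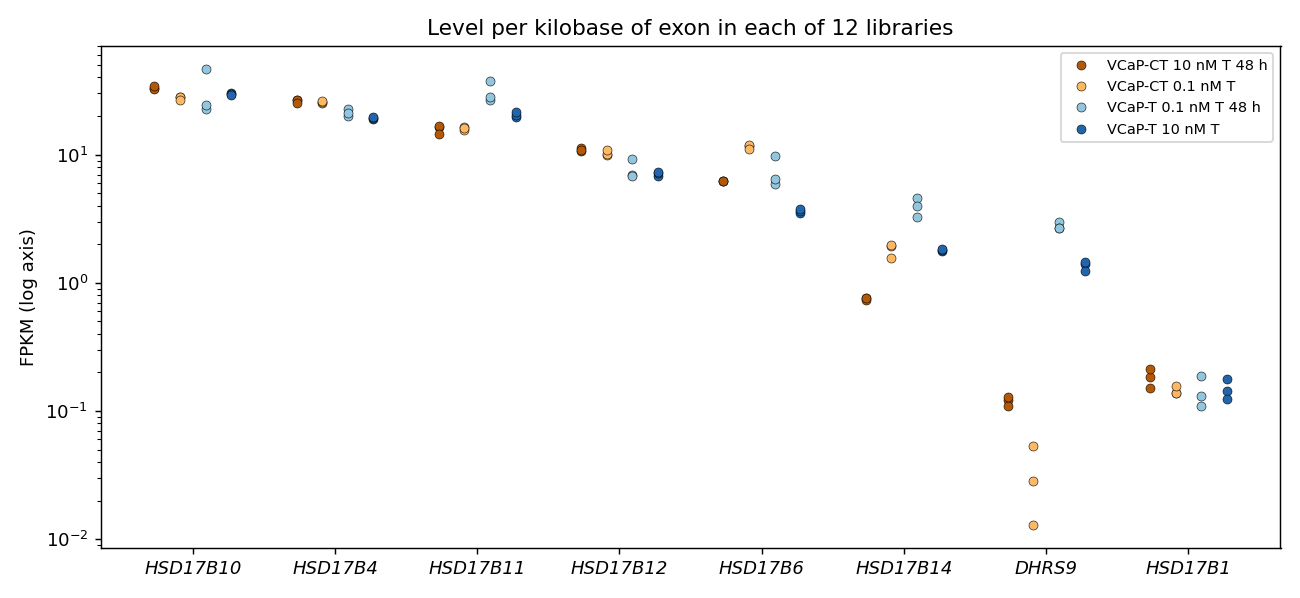
Level of 8 members in FPKM on a log axis, with each point a library and colors for the 4 groups (n = 3 libraries each); HSD17B2 and HSD17B8 are left out because they have no value to draw in most or all libraries. HSD17B10 and HSD17B4 lie near the top in every group, and the points of DHRS9 spread from 0.013 to 3.00 FPKM.

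Expression of 8 of the 10 members could be tested, and 2 had next to no fragments. HSD17B2, which oxidizes testosterone and estradiol to their keto forms (ENSG00000086696.10, chromosome 16, 82035004 to 82098534 of GRCh38), had 2 fragments in all 12 libraries together. One lay in a VCaP-CT library at 0.1 nM T and the other in a depleted VCaP-T library. A count of 0 allows up to 3 counts in a library, or 2.504 to 3.704 normalized counts, so expression below that was not detectable at this depth. HSD17B3, the testicular enzyme that makes testosterone and is not a member here, was listed at 0 in each of the 4 groups.

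HSD17B8, which forms with CBR4 the ketoacyl reductase of mitochondrial fatty acid synthesis (ENSG00000204228.3, chromosome 6, 33204642 to 33206831 of GRCh38), was listed at 0 in every library. Its neighbours were nearly empty as well. Of 17 other genes of the authors' normalized table that start within 200 kb, 9 were at 0 in all 12 libraries, and 16 had at most 10 fragments in any library. One of them was RPS18, a ribosomal protein gene that every cell uses, with 11 fragments over the 12 libraries together, and others were RING1, SLC39A7 and VPS52, all at 0. Between 300 and 1000 kb further along the chromosome, 4 of 7 genes averaged over 100 fragments per library, among them BAK1 with 1026 and ITPR3 with 12661. On the other side, between 200 and 1000 kb, 16 of 20 genes were at 0 in all 12 libraries and 1 averaged over 100. The zero of HSD17B8 is therefore not read as absence of its mRNA, and the cause was not tested. CBR4, its partner, was measured and had 3209 ± 113 normalized counts in VCaP-CT moved to 10 nM T, 4680.1 ± 60.0 in VCaP-CT at 0.1 nM T, 4246 ± 358 in depleted VCaP-T and 2752 ± 145 in VCaP-T at 10 nM T. CBR4 rose on depletion (log2 fold change 0.63, SE 0.08, edgeR adjusted p = 0.000188) and fell on rechallenge (log2 fold change -0.54, SE 0.08, edgeR adjusted p = 0.000299).

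**Figure D2:**
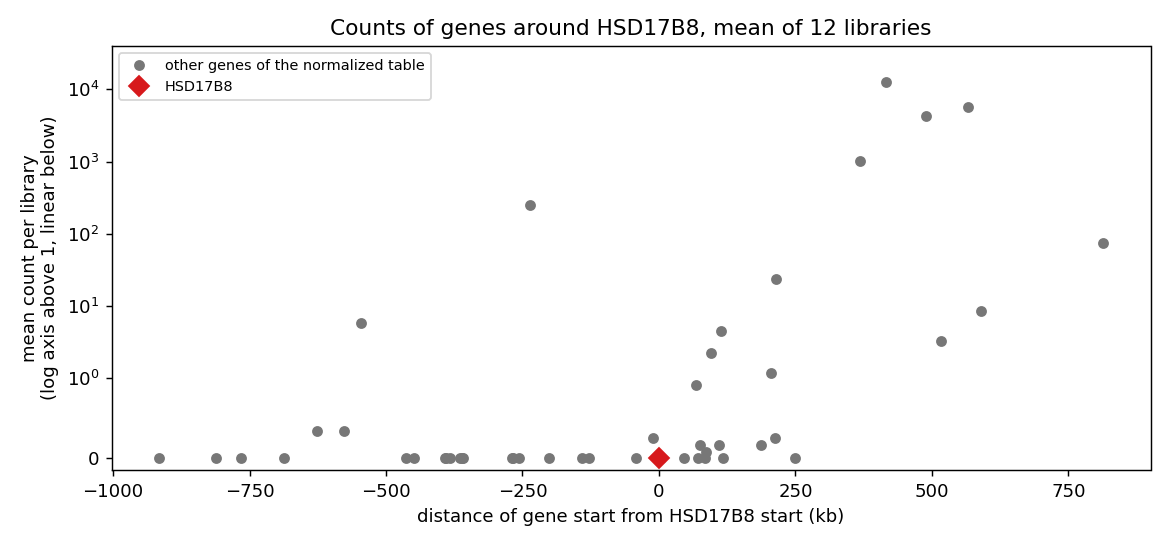
Mean count per library (log axis above 1, linear below) of genes of the normalized table, against the distance of their start from the start of HSD17B8 in kb. HSD17B8, the diamond, and most genes within 200 kb lie at or near 0, while 4 genes between 300 and 1000 kb on the right lie above 100.

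Depletion of VCaP-T for 48 h asked which of these genes respond to the loss of testosterone. Of the 8 members tested, 4 rose, 0 fell and 4 did not pass the test (edgeR, adjusted p under 0.01). Among all 19162 genes tested, 6.15% rose and 3.83% fell by the same rule. The median log2 fold change was 0.36 over the 8 members and 0.04 over all genes. HSD17B6, HSD17B14 and DHRS9 also met the study thresholds, which also ask for more than 1 on the log2 scale and for medians more than 13 normalized counts apart, and which 3.14% of all genes met. Normalized counts here are counts scaled by TMM library size.

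DHRS9, which oxidizes retinol and the steroid androstanediol (ENSG00000073737.16, chromosome 2, 169064789 to 169096167), had 396, 357 and 354 normalized counts in depleted VCaP-T, against 186, 164 and 191 in VCaP-T at 10 nM T. The 3 depleted libraries all lay above the 3 others. The log2 fold change was 1.03 (SE 0.15, edgeR adjusted p = 0.000633). HSD17B6, which oxidizes androstanediol back to dihydrotestosterone (ENSG00000025423.11, chromosome 12, 56752161 to 56787790), had 471, 788 and 513 normalized counts in depleted VCaP-T, against 279, 291 and 300.1 in VCaP-T at 10 nM T. Its groups did not overlap, with replicate 2 highest by far in the depleted group. The log2 fold change was 1.02 (SE 0.16, edgeR adjusted p = 0.000929), and 0.76 without replicate 2 of the depleted group, under the study threshold of 1. HSD17B14, a cytosolic enzyme that oxidizes estradiol and some sugars (ENSG00000087076.8, chromosome 19, 48813017 to 48836678), had 148, 209 and 180.5 normalized counts in depleted VCaP-T, against 79.6, 81.8 and 82.4 in VCaP-T at 10 nM T. These groups did not overlap either, and the log2 fold change was 1.13 (SE 0.15, edgeR adjusted p = 0.000295), and 1.003 without replicate 2.

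HSD17B11, an enzyme of lipid droplets that can oxidize androstanediol to androsterone (ENSG00000198189.10, chromosome 4, 87336610 to 87391386), had 2280.1, 3198 and 2429.8 normalized counts in depleted VCaP-T, against 1684, 1741 and 1844 in VCaP-T at 10 nM T. Its groups did not overlap, and the log2 fold change was 0.59 (SE 0.12, edgeR adjusted p = 0.00415). This call was lost without any single VCaP-T library at 10 nM T, with adjusted p between 0.0142 and 0.0233, and held without depleted replicate 2 at a log2 fold change of 0.42. In a fit of the 6 libraries alone, DHRS9 passed and HSD17B6, HSD17B11 and HSD17B14 did not, with adjusted p of 0.0401, 0.0709 and 0.0163.

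The 4 members that did not pass on depletion were HSD17B1, HSD17B4, HSD17B10 and HSD17B12. HSD17B10, the dehydrogenase of isoleucine breakdown and a subunit of mitochondrial RNase P (ENSG00000072506.12, chromosome X, 53431258 to 53434373), had 896, 1839 and 962 normalized counts in depleted VCaP-T, against 1199.6, 1164 and 1141 in VCaP-T at 10 nM T. Replicate 2 lay above every VCaP-T library at 10 nM T and the other 2 depleted libraries below. The log2 fold change was 0.07 (SE 0.21, edgeR adjusted p = 0.827) with replicate 2, and -0.33 (edgeR adjusted p = 0.000228) without it, so that the direction for HSD17B10 turned with 1 library. For HSD17B4, HSD17B12 and HSD17B1 the log2 fold changes were 0.14, 0.11 and -0.04, with 95% intervals before adjustment of 0.0065 to 0.28, -0.11 to 0.32 and -0.51 to 0.44. Without replicate 2 those of HSD17B12 and HSD17B1 turned to -0.059 and 0.034, and neither passed.

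**Figure D3:**
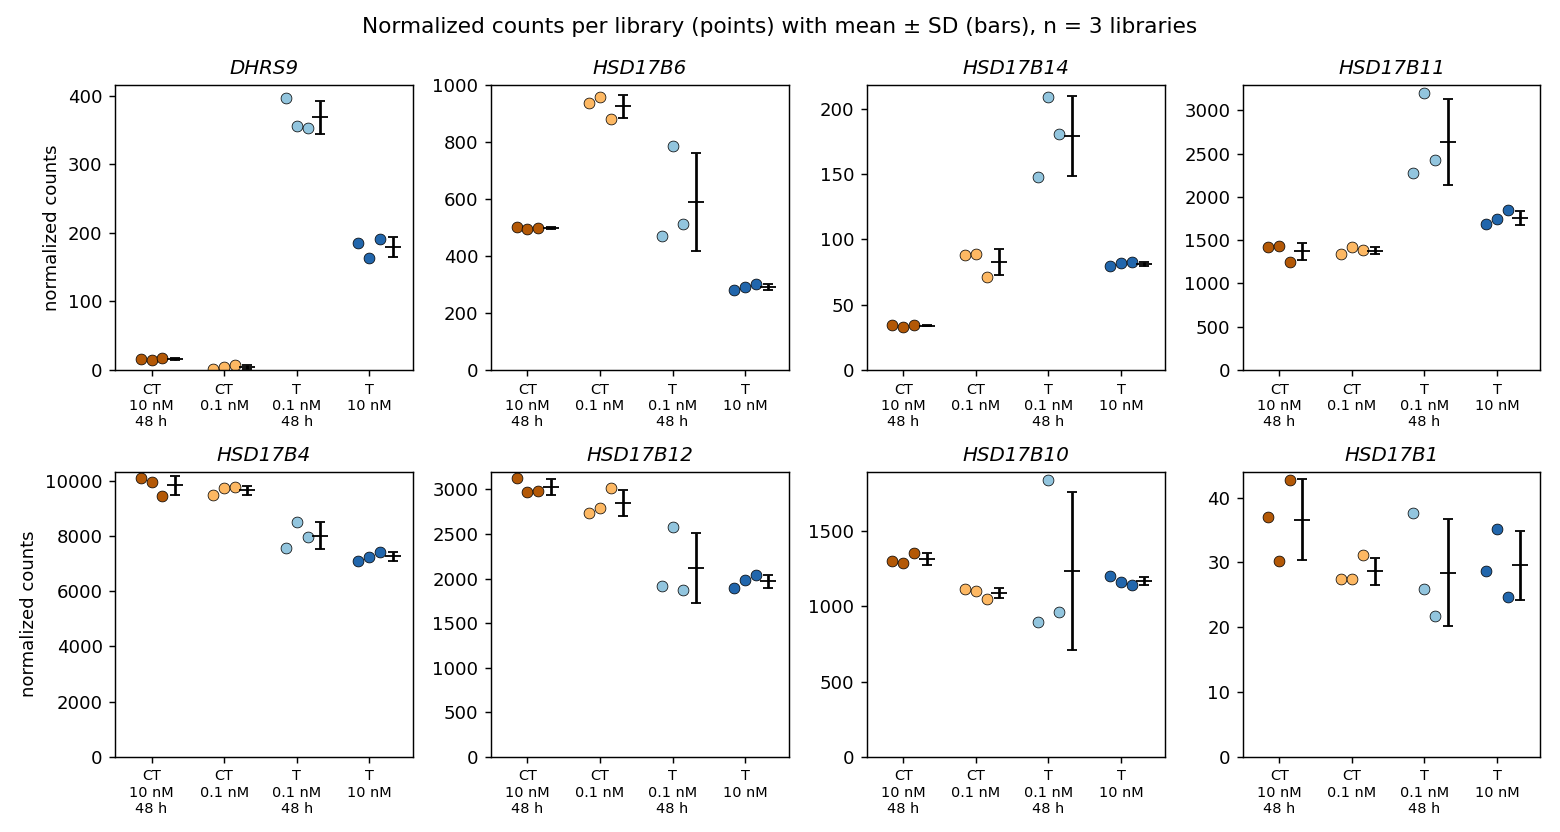
Normalized counts of the 8 members tested in each library (points) with the mean and SD (bars, n = 3 libraries) for VCaP-CT (CT) at 10 nM T for 48 h and at 0.1 nM T, and VCaP-T (T) at 0.1 nM T for 48 h and at 10 nM T. DHRS9 lies under 20 in both VCaP-CT groups, and replicate 2 of depleted VCaP-T lies at 1839 for HSD17B10, above its sisters at 896 and 962.

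Rechallenge of VCaP-CT with 10 nM T for 48 h asked which members still respond to testosterone in the castration-resistant line. Of the 8 tested, 1 rose, 2 fell and 5 did not pass, while 7.07% of all genes rose and 7.19% fell. HSD17B14 met the study thresholds, as 5.14% of all genes did. The median log2 fold change was 0.06 over the members and -0.02 over all genes.

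HSD17B14 had 34.5, 33.2 and 34.1 normalized counts in VCaP-CT moved to 10 nM T, against 88.1, 89.0 and 71.1 in VCaP-CT at 0.1 nM T. The rechallenged libraries all lay below the others, with a log2 fold change of -1.29 (SE 0.17, edgeR adjusted p = 0.000185). HSD17B6 had 502, 495 and 498 normalized counts in VCaP-CT moved to 10 nM T, against 937, 959.8 and 881 in VCaP-CT at 0.1 nM T. It fell by 0.89 on the log2 scale (SE 0.15, edgeR adjusted p = 0.00121), with no overlap. In both lines, HSD17B6 and HSD17B14 thus had the higher level at the lower testosterone.

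DHRS9 moved the other way in VCaP-CT than in VCaP-T. It had 16.0, 14.5 and 17.1 normalized counts in VCaP-CT moved to 10 nM T, against 1.71, 3.79 and 7.01 in VCaP-CT at 0.1 nM T, made from 13, 14 and 16 fragments against 2, 4 and 7. The groups did not overlap. The log2 fold change was 1.94 (SE 0.34, edgeR adjusted p = 0.00136), and the difference of medians, 12.2 normalized counts, stayed under the study threshold of 13. From the summed fragments, 43 against 13, the ratio was 3.93, with an exact 95% interval of 2.07 to 7.97 that covers counting error only. The levels behind this rise were low, and all of them lay far below the 164 to 396 normalized counts of the VCaP-T libraries.

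The other members showed no call on rechallenge. HSD17B10 had 1298, 1285 and 1357 normalized counts in VCaP-CT moved to 10 nM T, against 1116, 1103 and 1049.9 in VCaP-CT at 0.1 nM T. These groups did not overlap, but the log2 fold change of 0.27 had an adjusted p of 0.395 in edgeR, where the spread is shared with depleted VCaP-T. Without depleted replicate 2 the adjusted p was 0.000316, and in a fit of the 6 VCaP-CT libraries it was 0.000886. For HSD17B1, HSD17B4, HSD17B11 and HSD17B12 the log2 fold changes were 0.35, 0.03, -0.01 and 0.09, with 95% intervals of -0.11 to 0.82, -0.11 to 0.16, -0.24 to 0.22 and -0.13 to 0.30. HSD17B11, which rose on depletion of VCaP-T, had 1420.1, 1438 and 1252 normalized counts in VCaP-CT moved to 10 nM T, against 1335, 1422 and 1383 in VCaP-CT at 0.1 nM T.

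The response to 10 nM over 0.1 nM T was then compared between the lines in the same model, as the response of VCaP-CT minus that of VCaP-T. Testosterone was lowered for 48 h in VCaP-T but raised for 48 h in VCaP-CT. Line and direction of the change therefore cannot be told apart in this comparison. DHRS9 was the only member of 8 to pass, with a difference of 2.97 on the log2 scale (SE 0.37, edgeR adjusted p = 0.00142). In all, 0.804% of genes had a higher response in VCaP-CT by this test and 0.162% a lower one. HSD17B11 had a difference of 0.57 (SE 0.16, edgeR adjusted p = 0.0989), which became 0.41 with an adjusted p of 0.00298 without depleted replicate 2. For HSD17B6 and HSD17B14 the differences were 0.13 and -0.15, with 95% intervals of -0.30 to 0.56 and -0.59 to 0.29. Without depleted replicate 2 that of HSD17B6 turned to -0.138, and that of HSD17B10, 0.34 with it, to -0.062, and neither passed.

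**Figure D4:**
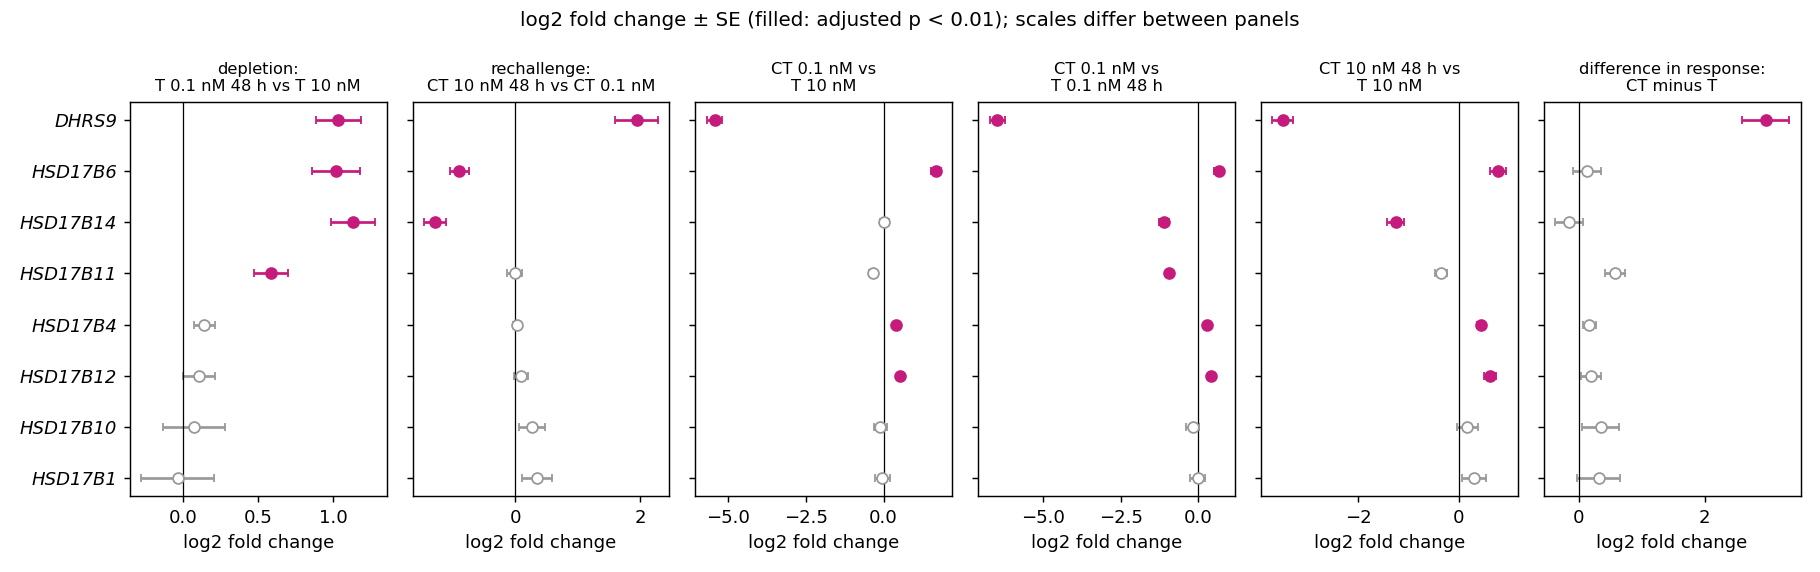
Log2 fold change (points) with SE (bars) of the 8 members tested in the 6 comparisons, VCaP-CT (CT) and VCaP-T (T), with filled points for an edgeR adjusted p under 0.01 and a separate scale in each panel. DHRS9 lies to the right of 0 on both depletion and rechallenge, at 1.03 and 1.94, while HSD17B6 and HSD17B14 lie on opposite sides.

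Between the lines, 3 comparisons were possible, and they share groups with each other and with those above. At equal testosterone, a line kept at that level was set against the line moved to it for 48 h. Line and time at that level cannot be told apart there. VCaP-CT at 0.1 nM T was first set against VCaP-T at 10 nM T, each in its own medium, where line and testosterone cannot be told apart. Here 3 members were higher in VCaP-CT, 1 was lower and 4 did not pass, against 14.8% of all genes higher and 15.7% lower. DHRS9 and HSD17B6 met the study thresholds, as 12.7% of all genes did. At 0.1 nM T in both lines, 3 members were higher in VCaP-CT, 3 were lower and 2 did not pass, against 13% and 16.4% of all genes. DHRS9 and HSD17B14 met the study thresholds there, as did 12.3% of all genes, but without depleted replicate 2 HSD17B14 had a log2 fold change of -0.971, under the study threshold of 1. At 10 nM T in both lines, 3 were higher, 2 lower and 3 did not pass, against 12% and 13.2% of all genes. DHRS9 and HSD17B14 again met the study thresholds, as did 10.2% of all genes.

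DHRS9 had the widest gap between the lines of the 8 members. Its values in VCaP-CT at 0.1 nM T, given above, came from 13 fragments in all, against 556 in VCaP-T at 10 nM T. By counts it was 44.7-fold lower in VCaP-CT, with an exact 95% interval of 25.9 to 84.4 for counting error alone. The log2 fold change was -5.43 in own medium (SE 0.25, edgeR adjusted p = 7.43e-09), -6.47 at 0.1 nM T (SE 0.24, edgeR adjusted p = 1.80e-09) and -3.50 at 10 nM T (SE 0.20, edgeR adjusted p = 9.41e-08). Against depleted VCaP-T, with 1107 fragments, it was 92.2-fold lower by counts (53.7 to 174). In bulk RNA, fewer cells that express a gene and less RNA per cell cannot be told apart.

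HSD17B14 depended on which groups were compared. In own medium its mean was 82.7 ± 10.1 normalized counts in VCaP-CT and 81.2 ± 1.44 in VCaP-T (SD, n = 3 each), a log2 fold change of 0.03 with a 95% interval of -0.27 to 0.33. At equal testosterone it was lower in VCaP-CT: the log2 fold change was -1.10 at 0.1 nM T (SE 0.15, edgeR adjusted p = 8.46e-05) and -1.26 at 10 nM T (SE 0.17, edgeR adjusted p = 0.000116). HSD17B11 fell short in own medium and at 10 nM T, with log2 fold changes of -0.35 and -0.36 and adjusted p of 0.0288 and 0.0289 in edgeR, although its groups did not overlap. At 0.1 nM T it was lower in VCaP-CT (log2 fold change -0.93, SE 0.12, edgeR adjusted p = 4.87e-05). Without depleted replicate 2, HSD17B11 passed in the other 2 comparisons as well, with adjusted p of 3.74e-05 and 3.71e-05.

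HSD17B10 passed in none of the 3 comparisons of the lines, with log2 fold changes of -0.10 in own medium, -0.17 at 0.1 nM T and 0.17 at 10 nM T (edgeR adjusted p = 0.725, 0.531 and 0.562). Without depleted replicate 2 it was higher in VCaP-CT at 0.1 nM T, by 0.23 on the log2 scale (edgeR adjusted p = 0.00252), and at 10 nM T, by 0.17 (edgeR adjusted p = 0.00887), so that its direction at 0.1 nM T also turned with that library.

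HSD17B6, HSD17B4 and HSD17B12 were higher in VCaP-CT in all 3 comparisons. HSD17B6 averaged 926 ± 40.8 normalized counts in VCaP-CT at 0.1 nM T, 590.4 ± 172 in depleted VCaP-T and 290.1 ± 10.5 in VCaP-T at 10 nM T. Its log2 fold change was 1.67 in own medium (SE 0.16, edgeR adjusted p = 4.50e-06), 0.65 at 0.1 nM T (SE 0.15, edgeR adjusted p = 0.00455) and 0.78 at 10 nM T (SE 0.16, edgeR adjusted p = 0.00211). HSD17B4, the peroxisomal bifunctional protein that breaks down very long and branched fatty acids (ENSG00000133835.15, chromosome 5, 119452443 to 119637199), had 10102, 9963 and 9451 normalized counts in VCaP-CT moved to 10 nM T and 9473, 9725 and 9787 in VCaP-CT at 0.1 nM T. It had 7561, 8525 and 7963 in depleted VCaP-T and 7109.7, 7259 and 7426 in VCaP-T at 10 nM T. All 6 VCaP-CT libraries thus lay above all 6 VCaP-T libraries. The log2 fold changes of HSD17B4 were 0.41, 0.27 and 0.44 in own medium, at 0.1 nM T and at 10 nM T (edgeR adjusted p = 0.000453, 0.00772 and 0.000357).

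HSD17B12, the ketoacyl reductase of very long chain fatty acid elongation (ENSG00000149084.12, chromosome 11, 43680558 to 43856617), had 3129, 2968 and 2986 normalized counts in VCaP-CT moved to 10 nM T and 2739, 2792 and 3014 in VCaP-CT at 0.1 nM T. It had 1915, 2576 and 1873 in depleted VCaP-T and 1892, 1981 and 2038 in VCaP-T at 10 nM T. Again every VCaP-CT library lay above every VCaP-T library, and depleted replicate 2 was the highest of VCaP-T. The log2 fold changes were 0.53, 0.43 and 0.62 (edgeR adjusted p = 0.00197, 0.00797 and 0.000836). At 0.1 nM T the calls of HSD17B4, HSD17B12 and HSD17B6 were close to the threshold: in a fit of the 6 libraries alone their adjusted p were 0.0619, 0.0660 and 0.0506. Leaving out any 1 of these 6 libraries other than depleted replicate 2 took all 3 calls away as well, and without that replicate the log2 fold changes were 0.32, 0.59 and 0.92. The calls of HSD17B6 at 10 nM T and of HSD17B12 in own medium were not kept in every alternative fit either. Over the edgeR and DESeq2 alternatives, their adjusted p reached 0.0119 and 0.0117. Of the exons of HSD17B12, 21.6% of the length overlaps other genes, and fragments in such overlaps were not counted.

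HSD17B1, which makes estradiol from estrone (ENSG00000108786.10, chromosome 17, 42549214 to 42555213), had 21 to 45 fragments in a library. It averaged 36.6 ± 6.28 normalized counts in VCaP-CT moved to 10 nM T, 28.6 ± 2.10 in VCaP-CT at 0.1 nM T, 28.4 ± 8.23 in depleted VCaP-T and 29.5 ± 5.29 in VCaP-T at 10 nM T (SD, n = 3 each). The values of the 4 groups overlapped, and no comparison passed. Strand was not used in the counting and 34.8% of the exon length of HSD17B1 overlaps its antisense gene, so part of its fragments was left out.

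Promoter sequence is shown for members called on depletion or rechallenge, since these moved with testosterone. RefSeq windows on GRCh38.p14, from 250 bases before to 50 after the start, were found for 5 of the 10 members, with 4 starts for DHRS9 and 1 for HSD17B11. HSD17B1, HSD17B2, HSD17B6, HSD17B12 and HSD17B14 had no entry. Both strands were searched for the 6-base core of the steroid receptor element, AGAACA or TGTTCT, and for a pair of cores as an inverted repeat 3 bases apart. Of 35116 windows in the table, 14.8% hold a core, and 1 holds the inverted repeat. A core stood in 2 of the 4 DHRS9 windows, the third start (TGTTCT beginning 98 bases before it) and the fourth (AGAACA beginning 32 bases before it, inside an exon of another annotated transcript). The HSD17B11 window held no core. A match is a description of letters and not a binding site. The sequences below stop before any exon of the annotation used for the counts or of a later Gencode release, with the core in capitals.
DHRS9, the third start, chr2:169072325-169072499, plus strand: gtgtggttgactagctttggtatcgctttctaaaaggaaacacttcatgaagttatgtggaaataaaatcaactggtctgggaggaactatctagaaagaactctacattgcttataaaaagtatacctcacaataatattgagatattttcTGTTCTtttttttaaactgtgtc
HSD17B11, chr4:87391387-87391438, minus strand: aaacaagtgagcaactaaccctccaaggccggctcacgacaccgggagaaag
The DHRS9 window had 31.3% G and C and the HSD17B11 window 55.3%, over the 300 bases searched.

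Other enzymes of the same reactions were counted from lists of their own. Among all genes tested, 6.15% rose and 3.83% fell on depletion, and 7.07% rose and 7.19% fell on rechallenge. Of 35 genes of steroid conversion, 23 were tested. On depletion 3 of them rose and 0 fell: AKR1C3, an aldo-keto reductase also known as the fifth 17-beta hydroxysteroid dehydrogenase (log2 fold change 2.16), and UGT2B15 and UGT2B17, which attach glucuronic acid to androgens (2.29 and 3.34). On rechallenge 5 rose and 2 fell. The 3 of smallest p among those at the study thresholds were UGT2B11 (log2 fold change 3.30), HSD3B1, which makes androstenedione from dehydroepiandrosterone (1.602), and AKR1C3 (-1.50). AKR1C3 averaged 22.3 ± 2.62 normalized counts in VCaP-CT moved to 10 nM T, 63.8 ± 6.56 in VCaP-CT at 0.1 nM T, 727 ± 274 in depleted VCaP-T and 162 ± 19.3 in VCaP-T at 10 nM T. Like DHRS9 it was lower in VCaP-CT than in VCaP-T, but it fell on rechallenge where DHRS9 rose.

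Closest relatives of single members were read in the same way. HSD17B7, which acts in cholesterol synthesis, averaged 607 ± 48.9 normalized counts in rechallenged VCaP-CT and 342 ± 16.2 in VCaP-CT at 0.1 nM T, and rose on rechallenge (log2 fold change 0.83, SE 0.13, edgeR adjusted p = 0.000583). HSD17B13, the closest relative of HSD17B11, averaged 16.999 ± 6.99 normalized counts in depleted VCaP-T and 9.11 ± 2.15 in VCaP-T at 10 nM T, which did not pass (log2 fold change 0.93, edgeR adjusted p = 0.192). RDH16, a retinol dehydrogenase close to HSD17B6, averaged 143 ± 8.36 in depleted VCaP-T and 103 ± 2.79 in VCaP-T at 10 nM T. That difference did not pass (log2 fold change 0.47, edgeR adjusted p = 0.043). RDH16 was lower in VCaP-CT in all 3 comparisons of the lines, with log2 fold changes of -1.17, -1.63 and -1.48, where HSD17B6 was higher. TRMT10C, the partner of HSD17B10 in mitochondrial RNase P, averaged 1976 ± 128 normalized counts in VCaP-CT moved to 10 nM T, 1714 ± 38.8 in VCaP-CT at 0.1 nM T, 1409 ± 459 in depleted VCaP-T and 1563 ± 63.8 in VCaP-T at 10 nM T.

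Lists around the other members moved in part, against 6.15% of all genes rising and 3.83% falling on depletion, and 7.07% and 7.19% on rechallenge. Of 18 tested genes of retinoid oxidation and relatives of DHRS9 and HSD17B6, 3 rose on depletion and 1 fell. DHRS7, another of the short-chain dehydrogenases, rose (log2 fold change 1.00), and ALDH1A3, which makes retinoic acid, fell (-1.23). On rechallenge 4 rose and 2 fell, with ALDH1A3 up by 1.602 and DHRS2 up by 1.15 on the log2 scale, and CRABP2, a carrier of retinoic acid, at -1.01. Of 16 tested genes of peroxisomal beta-oxidation, the pathway of HSD17B4, 1 rose and 2 fell on depletion, and 4 rose and 2 fell on rechallenge. AMACR, a racemase of branched fatty acids that is abundant in prostate cancer, fell on depletion by 1.79 on the log2 scale and rose on rechallenge by 2.94, while HSD17B4 passed neither test. EHHADH, the other bifunctional enzyme of peroxisomes, fell on rechallenge by 1.65. Of 11 tested genes of very long chain fatty acid elongation, 1 rose and 2 fell on depletion, and 6 rose and 0 fell on rechallenge, none at the study thresholds. The median log2 fold change of these 11 on rechallenge was 0.42, against -0.02 for all genes, and HSD17B12 itself had 0.09.

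Of 9 tested lipid droplet genes, around HSD17B11, 1 rose on depletion, PLIN1, which coats lipid droplets (log2 fold change 1.20), and 0 fell. On rechallenge 1 rose and 1 fell, with PLIN4 at -1.07. Of 12 tested genes of isoleucine breakdown and mitochondrial tRNA processing, around HSD17B10, 0 passed on depletion in edgeR, and 1 rose and 1 fell on rechallenge. On depletion 3 of the 12 had an unadjusted p under 0.05 in edgeR, as did 6818 of all 19162 genes. In DESeq2 1 of the 12 passed on depletion, as did 2760 genes in all. Of 8 genes of mitochondrial fatty acid synthesis, around HSD17B8, CBR4 rose on depletion and 0 fell, and 2 fell on rechallenge. For these lists as well, the shares of all genes were 6.15% rising and 3.83% falling on depletion, and 7.07% and 7.19% on rechallenge.

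Markers of some other cell types moved with testosterone as well. The summed level of 7 fibroblast and smooth muscle markers was 0.877 to 1.19 FPKM in VCaP-CT moved to 10 nM T, 8.14 to 9.14 in VCaP-CT at 0.1 nM T, 4.14 to 4.54 in depleted VCaP-T and 0.969 to 1.19 in VCaP-T at 10 nM T. In VCaP-CT at 0.1 nM T LUM reached 8.78 FPKM, most of the sum, but its lowest value in any library was 0.160 FPKM. MYH11 was at 0 in every library, with DCN at most 0.0111 FPKM and PDGFRA at most 0.0072. The 4 liver markers summed to 2.51 to 3.00 FPKM in VCaP-CT moved to 10 nM T, 14.1 to 15.0 in VCaP-CT at 0.1 nM T, 10.0 to 12.6 in depleted VCaP-T and 2.02 to 2.45 in VCaP-T at 10 nM T, nearly all from ALB, with CYP3A4 at most 0.0496 FPKM. These sums were higher at 0.1 nM T in both lines, as were HSD17B6 and HSD17B14, and their part in those results was not tested. The 3 basal markers, nearly all KRT14, went the other way, with 1.33 to 1.53 FPKM in VCaP-CT moved to 10 nM T, 0.601 to 0.770 in VCaP-CT at 0.1 nM T, 0.641 to 1.51 in depleted VCaP-T and 2.03 to 2.49 in VCaP-T at 10 nM T. The 4 endothelial markers summed to 1.41 to 1.49 FPKM in VCaP-CT moved to 10 nM T, 0.955 to 1.01 in VCaP-CT at 0.1 nM T, 1.62 to 1.69 in depleted VCaP-T and 1.51 to 1.71 in VCaP-T at 10 nM T, and the 5 blood cell markers to at most 0.0687 FPKM in any library.

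Finally, the genes whose pattern over the 12 libraries was most like each member were listed by Pearson r of log2 CPM, as a description. Before the log, 0.5 CPM was added to each value. All DHRS9 values in VCaP-CT lay below 0.5 CPM, so differences among them count little in its r. The points share the 4 groups and 2 lines, so that high values follow from few differences. For DHRS9 these were TMCO3, NRAP and RTBDN (r = 0.9937, 0.9933 and 0.9918), for HSD17B6 NPTN, REXO2 and TTR (0.9893, 0.9885 and 0.9831), and for HSD17B14 ZNRF1, CCDC28A and ABHD14B (0.9908, 0.9863 and 0.9859). For HSD17B11 they were BTG1, S100A14 and SCP2 (0.995, 0.9904 and 0.9873), for HSD17B4 HNRNPH2, GALNTL6 and YIPF5 (0.9887, 0.9868 and 0.9833), and for HSD17B12 GRSF1, RPL17 and MRPS6 (0.9907, 0.9907 and 0.9903). Among the members, HSD17B4 and HSD17B12 had r = 0.957, DHRS9 and HSD17B11 0.878, HSD17B14 and HSD17B11 0.852, and DHRS9 and HSD17B4 -0.851.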

How the data were processed

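The count values were deposited by the authors as fragments per gene: TruSeq stranded poly(A) libraries, 75 bp paired ends, STAR 2.5.4b on GRCh38 and featureCounts 1.6.2 on Gencode release 28, with strand not used and fragments that fit several genes or places left out, per the file headers. A second deposited table holds signal values, counts divided by DESeq2 1.24.0 size factors (R 3.6.1), and was used here only for the list of its 19742 genes. From the counts, levels were scaled by TMM, and FPKM used the exon length in the files.

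Tests used edgeR 4.0.16 in R 4.3.3 (quasi-likelihood test, filterByExpr, the 4 groups in 1 model, no block, Benjamini-Hochberg over 19162 genes). A gene passed at an adjusted p under 0.01. The median threshold of 13 was not applied to the difference in response. DESeq2 1.42.0, other scalings, no filter, a replicate block, the 6 libraries alone and each library left out were tried. The test was run on simulated data first. Likeness was the Pearson r of log2 CPM after 0.5 CPM was added to each value. Intervals of fold changes are normal approximations from the SE. Intervals of summed counts were exact binomial (scipy 1.17.1).

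The 10 members, the 7 gene lists and the comparisons were chosen with earlier results of these data known. All members are named. Genes of the lists are named only at the study thresholds, at most 3 per list and comparison, or as the partner or closest relative of a member. Columns with no sample numbered 0. Of 13 genes in the isoleucine and tRNA list, 1 symbol was not matched. Proteins were not used here.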

Additional observations from a re-analysis of the deposited data

Results flagged for a closer look

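The response of DHRS9 to testosterone differed between the 2 lines, by the test of the difference itself. Its opposite directions rest on the separate tests of depletion (log2 fold change 1.03) and rechallenge (1.94). Testosterone was lowered in VCaP-T and raised in VCaP-CT, so line and direction of the change cannot be told apart. The response to 10 nM over 0.1 nM T in VCaP-CT minus that in VCaP-T was 2.97 on the log2 scale (SE 0.37, edgeR adjusted p = 0.00142). It lay between 2.58 and 3.53 when each of the 12 libraries was left out in turn. All 3 rechallenged VCaP-CT libraries lay above the 3 at 0.1 nM T, with 13 to 16 fragments against 2 to 7, and all 3 depleted VCaP-T libraries lay above the 3 at 10 nM T. The VCaP-CT side rests on 56 fragments in 6 libraries.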

How the results depend on the processing

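In a fit of only the 6 libraries compared, 1 member passed on depletion in place of 4, and 3 passed between the lines at 0.1 nM T in place of 6. With single libraries left out, 3 to 5 members passed on depletion, 3 or 4 on rechallenge, 3 to 5 between the lines in own medium, 3 to 7 at 0.1 nM T, 4 to 7 at 10 nM T, and 1 or 2 in the difference in response. Depleted VCaP-T replicate 2 gave the highest counts when left out. DHRS9 kept its direction and its call in all 6 comparisons under every alternative. Values near 0 that changed sign were HSD17B4 on rechallenge with upper-quartile scaling (-0.026), HSD17B11 on rechallenge with DESeq2 (0.001), and HSD17B1 between the lines at 0.1 nM T with no filter (0.010). With libraries left out, log2 fold changes that crossed 0 ran from -0.311 to 0.134 for HSD17B1, -0.333 to 0.265 for HSD17B10 and -0.059 to 0.193 for HSD17B12 on depletion, and from -0.047 to 0.051 for HSD17B11 on rechallenge. In own medium they ran from -0.159 to 0.105 for HSD17B1 and -0.025 to 0.124 for HSD17B14, at 0.1 nM T from -0.177 to 0.268 for HSD17B1 and -0.363 to 0.234 for HSD17B10, and in the difference in response from -0.138 to 0.270 for HSD17B6 and -0.062 to 0.532 for HSD17B10. The cause was not tested.

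Replicate numbers gave no sign of pairing: deviations of same-numbered libraries from their group means correlated between -0.316 and 0.102, with 1 of 18 pairs over 0.1. For libraries of unlike numbers the range was -0.268 to 0.297, with 8 of 36 pairs over 0.1. Deviations from means of 3 libraries cannot exclude pairing, and pairing under other numbers was not tested. With the replicate block, members passing were 4 on depletion, 3 on rechallenge, 4 in own medium, 4 at 0.1 nM T (6 without it), 5 at 10 nM T and 1 in the difference, and HSD17B1 at 0.1 nM T had 0.003, against -0.01 without the block.

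Over all genes, 1911 passed on depletion, against 283 in the fit of 6 libraries and 906 to 5320 with 1 library left out. For rechallenge these were 2732, 6981 and 1674 to 7184, in own medium 5857, 10491 and 4359 to 10497, at 0.1 nM T 5647, 2932 and 4178 to 9348, and at 10 nM T 4828, 8334 and 3438 to 9415. The difference in response had 185, against 83 with the block, 576 with DESeq2 and 69 to 1451 with 1 library left out. Upper-quartile scaling gave 1107 higher and 1599 lower on rechallenge, against 1354 and 1378, and 1317 and 633 on depletion, against 1178 and 733. Depth limits DHRS9 in VCaP-CT and HSD17B1, with at most 45 fragments in a library.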

Other observations

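Between the lines the lists around the members differed in several directions. Among all genes, 14.8% were higher and 15.7% lower in VCaP-CT in own medium, 13% and 16.4% at 0.1 nM T, and 12% and 13.2% at 10 nM T (edgeR adjusted p under 0.01). Of 23 tested genes of steroid conversion, 0 were higher and 8 lower in own medium, 0 and 11 at 0.1 nM T, and 5 and 6 at 10 nM T. The 3 of smallest p at the study thresholds at 0.1 nM T were SRD5A1, a steroid reductase that makes dihydrotestosterone (log2 fold change -1.16), AKR1C3 (-3.51) and AKR1C1 (-3.31). At 10 nM T they were AKR1C3, AKR1C2 and AKR1C1, reductases of steroid keto groups, at -2.84, -2.57 and -4.34, while HSD17B7 was among the 5 higher, at 1.23.

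Of 18 retinoid genes, 6 were higher and 5 lower in VCaP-CT in own medium, 3 and 6 at 0.1 nM T, and 5 and 3 at 10 nM T. In own medium LRAT, which stores retinol as esters, was higher by a log2 fold change of 2.44, CRABP2 was higher by 1.92, and ALDH1A3 was lower at -1.22. Of 11 elongation genes, 1 was higher and 6 lower in own medium, 4 and 4 at 0.1 nM T, and 4 and 3 at 10 nM T. At 0.1 nM T HACD2, a dehydratase that acts after HSD17B12, was higher (log2 fold change 1.00), as was HSD17B12 (0.43). ELOVL4 and ELOVL2, which start the cycle, were lower (-1.24 and -1.06). Genes of the same steps also went the other way. ELOVL5, ELOVL6 and ELOVL7 were higher (0.50, 0.39 and 0.47), and HACD1 and HACD3 were lower (-1.79 and -0.41). Of 9 lipid droplet genes, 1 was higher and 4 lower in own medium, 0 and 5 at 0.1 nM T, and 2 and 3 at 10 nM T. PLIN4, PLIN2 and PLIN1, which coat lipid droplets, were among those lower at 0.1 nM T (-2.23, -1.44 and -1.36).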
